A study of Mus musculus with 12 samples.

Results

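The comparison of sDB3 with sAB sets mice that had a sham first operation and then a second operation against mice that had the sham operation alone. It was chosen by label and covers 6 of the 12 arrays of the series, 3 in each group. All mice were male C57BL/6, had their first operation at an age of 7 weeks and carried no other labelled allele or agent. The sAB mice were killed 4 weeks after the sham. The sDB3 mice had the second operation at that time, which the labels call debanding although no band had been placed, and were killed 3 days later. The remaining arrays are 3 of mice with an aortic band for 4 weeks (AB) and 3 of banded mice killed 3 days after the band was removed (DB3). Constriction of the aorta by a band makes the left ventricle pump against a raised pressure. Total RNA of the left ventricle, freed of right ventricle and atria, was hybridised to 1 Affymetrix array per mouse, and every level below is the authors' log2 signal on that array. The sDB3 group thus differs from sAB by the second operation and by 3 days of age, and what that operation consisted of in a mouse without a band is not stated. The design names sham as the control of the study. The labels give no hour of day at which the hearts were taken.

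Heart muscle carries a molecular clock in which Arntl, with Clock or Npas2 as partner, switches on the Per, Cry and Nr1d genes, whose products in turn switch Arntl and its targets off. Transcripts of the 2 arms therefore peak at opposite times of the day, and output factors such as Dbp carry the rhythm to further genes. Glucocorticoids, the adrenal stress hormones that rise after surgery and also follow a daily rhythm, act on the heart through a nuclear receptor and raise Per1, Zbtb16, Fkbp5, the metallothioneins and Klf15. Wounding also calls leukocytes and an acute-phase programme into play.

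Ventricular markers were at a high level on all 6 sham arrays. The summed level of the 20 ventricular muscle markers lay between 19.46 and 19.48 (log2) in sAB and between 19.53 and 19.58 in sDB3. Atrial markers were also present although atria had been removed, with a summed level of 13.48 to 13.63 in sAB and 13.90 to 14.84 in sDB3. The sum was 15.34 to 15.65 in AB and 14.11 to 15.07 in DB3, and which cells gave these signals was not tested. Of 12 neutrophil markers 8, and of 18 lymphocyte markers 16, stayed below 4 on all 6 sham arrays. The bacterial BioC control, a spike added before hybridisation, separated sAB (10.15 to 10.51) from sDB3 (8.28 to 8.60) and from the other 2 groups, which lay with sDB3. The 18S rRNA 5′ control probe set lay at 8.64 to 9.97 in sAB, at 10.41 to 12.65 in sDB3, at 10.51 to 11.41 in AB and at 9.80 to 11.12 in DB3, whose range met that of sAB. The 18S rRNA middle probe set separated sAB (6.20 to 7.43) from all other 9 arrays (8.10 to 9.88), and so did the Cre spike, at 14.38 to 14.55 in sAB and 14.71 to 14.91 on the others. The 3′ to 5′ difference of the Actb control, a measure of RNA integrity, was 1.20 to 1.26 in sAB and 1.20 to 1.25 in sDB3. Handling of the sAB arrays and the second operation cannot be told apart in this pair of groups, so AB and DB3 are given beside the groups of genes below. These 6 arrays had the BioC level of sDB3 and form a second pair, DB3 against AB, that shares no array with the sham pair. In whole tissue, fewer cells of a type and less RNA per cell cannot be told apart.

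Of 10435 genes tested, 1861 (17.8%) differed between sDB3 and sAB by limma with a Benjamini-Hochberg adjusted p under 0.05. Of these, 573 were higher (5.49% of genes tested) and 1288 lower (12.3%) in sDB3. This split depended on scaling: quantile normalization gave 712 higher and 738 lower, and centring each array on its median gave 1058 higher and 481 lower. The median difference over all genes was -0.09 as deposited and 0.02 after median centring, so directions below are read against that shift. Most differences were small, with a median size of 0.43 (log2) among genes that passed. Only 78 genes (0.747%) passed with a difference of at least 2-fold, 41 higher and 37 lower. P-values measure the spread between the mice of these groups, and the smallest p that exact permutation of 3 and 3 arrays allows is 0.1. Left-out arrays moved the count between 967, without sDB3 replicate 2, and 1945, without sDB3 replicate 3. The count was 1121 without sAB replicate 2, 1131 without sAB replicate 3 and 1178 without sDB3 replicate 1. A fit on the 6 sham arrays alone called 571 genes.

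Clock genes moved in both directions. Of 13 core clock genes tested, 8 passed (61.5%, beside 17.8% of all genes), 4 higher and 4 lower. Nr1d1, which encodes the repressor REV-ERB alpha, was at 6.88, 6.82 and 7.19 in the sAB arrays and at 9.35, 9.10 and 8.94 in the sDB3 arrays. The groups did not overlap (36.9% of all genes did not), and the difference was 2.17 ± 0.22 (SE, n = 3 against 3; limma adjusted p = 0.000347), the same call in every setting run. Dbp, a clock-driven transcription factor, was at 8.34, 8.02 and 8.62 in sAB and at 11.09, 11.36 and 9.59 in sDB3. All sDB3 arrays lay above all sAB arrays, replicate 3 least so. Dbp rose by 2.35 ± 0.53 (adjusted p = 0.0157), a call lost without sAB replicate 2, sDB3 replicate 1 or sDB3 replicate 2 (adjusted p up to 0.0597).

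Per1 and Per2, the period genes that close the negative arm, rose as well. Per1 was at 4.40, 4.61 and 4.90 in sAB against 6.09, 6.64 and 5.32 in sDB3, with no overlap and a difference of 1.38 ± 0.35 (adjusted p = 0.0243). Per2 was near the floor of the array in sAB (2.71, 2.56 and 2.70) and at 5.60, 5.69 and 2.71 in sDB3. Replicate 3 of sDB3 lay among the sAB arrays, so that the difference of 2.01 (adjusted p = 0.0454) is the mean of 2 high arrays and 1 low one. Nr1d2, the paralogue of Nr1d1, rose by 0.82 (adjusted p = 0.0245), and Usp2, a clock-controlled deubiquitinase, by 1.06 (adjusted p = 0.0188). Without sAB replicate 2, sDB3 replicate 1 or sDB3 replicate 2 none of these 4 passed, with adjusted p up to 0.0825 for Per1, 0.153 for Per2, 0.0849 for Nr1d2 and 0.0631 for Usp2. Without sAB replicate 1 the call was lost for Per1 and Per2 and without sAB replicate 3 for Per2, which also lost it without any 1 of the AB or DB3 arrays.

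The 2 transcription factor genes of the activating arm that passed were lower. Arntl, which encodes BMAL1, was at 7.71, 7.82 and 7.60 in sAB and at 5.08, 4.51 and 7.31 in sDB3. The groups did not overlap, but replicate 3 lay just under the sAB range, and the difference was -2.07 ± 0.58 (adjusted p = 0.0341, up to 0.112 with an array left out). That call was kept without sDB3 replicate 3 and lost without any other single sham array. Npas2, the partner of BMAL1 that can stand in for CLOCK, was at 6.30, 6.86 and 6.57 against 4.09, 4.28 and 5.81, a fall of 1.85 that kept its call with every array left out (adjusted p = 0.00996, up to 0.0382). Cry1, a repressor of the same arm as Per1 and Per2, did not rise with them and fell by 0.79 (adjusted p = 0.006), also in every left-out set. Nfil3, which opposes Dbp at the same sites, fell by 0.97 (adjusted p = 0.0182; lost without sAB replicate 2 or sDB3 replicate 2, up to 0.0644). Csnk1d, a kinase that marks PER proteins for decay, fell by 0.53 (adjusted p = 0.0343), and Leo1, from the output list, by 0.64 (adjusted p = 0.0425). Their calls were lost in most left-out sets, with adjusted p up to 0.0911 and 0.136. Of the 14 genes of the output list, 4 passed (28.6%, beside 17.8% of all genes), 2 higher and 2 lower. The list had a median of 0.55 beside -0.09 for all genes.

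**Figure D1:**
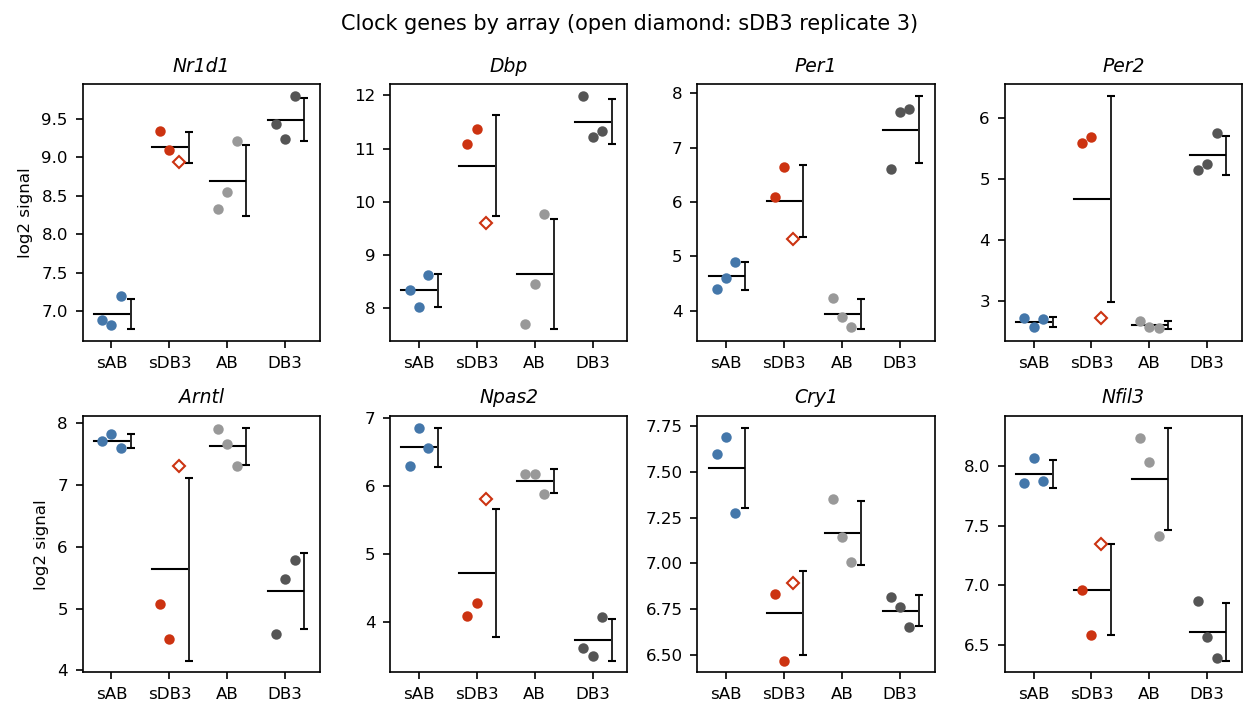
Log2 signal of 8 clock genes on each of the 12 arrays, 1 panel per gene, with arrays grouped by operation on the x axis, a line at the group mean and a bar of 1 SD beside it. Nr1d1, Dbp, Per1 and Per2 are higher and Arntl, Npas2, Cry1 and Nfil3 lower in sDB3 than in sAB, and sDB3 replicate 3 (open diamond) is the sDB3 array nearest to sAB in all 8 panels.

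The promoters of the clock genes that passed were searched for 3 motifs through which clock factors are known to act. Of the 12 genes, 10 had an entry among RefSeq promoters of build GRCm38.p6, which span 250 bases before to 50 after a gene's start. These 10 genes had 12 entries. A gene was counted if any of its entries held the motif, whereas the shares given beside the counts are of single entries. An E-box, CACGTG, where BMAL1 heterodimers bind, was present for 2 of the 10 genes, beside 7.15% of 32851 promoters of the same length searched on both strands. A D-box, TTATGNAA, the site of DBP and NFIL3, was present for 1 gene (3.38% of promoters). The half-site AGGTCA of the REV-ERB and ROR receptors, which is short and common, was present for 5 (16.3% of promoters). The windows of Dbp, Nr1d1, Npas2 and Usp2 held none of the 3. The windows of 2 genes that rose and 2 that fell are printed 5′ to 3′ on the gene's strand, with matches in capitals, because they hold these motifs in or out of company. Per1 alone held all 3, on the plus strand at chr11:69098699-69098998, while another Per1 entry, at chr11:69099902-69100201, held none of them. Cry1, at chr10:85185005-85185304 on the minus strand, held an E-box. Nr1d2 (chr14:18239057-18239356, minus strand) and Nfil3 (chr13:52980990-52981289, minus strand) held the receptor half-site. A match describes the letters in the window and shows no binding.
Per1: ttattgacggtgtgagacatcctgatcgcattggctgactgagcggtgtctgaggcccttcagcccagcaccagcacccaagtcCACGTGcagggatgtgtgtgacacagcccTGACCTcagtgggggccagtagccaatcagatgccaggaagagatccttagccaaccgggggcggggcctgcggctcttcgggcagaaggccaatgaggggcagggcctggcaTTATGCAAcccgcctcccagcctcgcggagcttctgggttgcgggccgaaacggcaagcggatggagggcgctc
Cry1: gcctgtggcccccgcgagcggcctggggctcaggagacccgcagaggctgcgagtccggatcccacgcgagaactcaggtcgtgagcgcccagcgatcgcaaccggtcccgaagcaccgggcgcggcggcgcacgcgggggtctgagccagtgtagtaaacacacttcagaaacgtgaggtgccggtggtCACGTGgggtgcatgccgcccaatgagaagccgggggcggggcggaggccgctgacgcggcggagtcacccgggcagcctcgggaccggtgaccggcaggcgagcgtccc
Nr1d2: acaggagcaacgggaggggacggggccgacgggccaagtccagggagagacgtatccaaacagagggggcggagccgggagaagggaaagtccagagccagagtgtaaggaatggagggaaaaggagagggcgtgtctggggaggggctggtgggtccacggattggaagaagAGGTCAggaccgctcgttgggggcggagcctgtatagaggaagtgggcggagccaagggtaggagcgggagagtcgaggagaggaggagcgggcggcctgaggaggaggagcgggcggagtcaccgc
Nfil3: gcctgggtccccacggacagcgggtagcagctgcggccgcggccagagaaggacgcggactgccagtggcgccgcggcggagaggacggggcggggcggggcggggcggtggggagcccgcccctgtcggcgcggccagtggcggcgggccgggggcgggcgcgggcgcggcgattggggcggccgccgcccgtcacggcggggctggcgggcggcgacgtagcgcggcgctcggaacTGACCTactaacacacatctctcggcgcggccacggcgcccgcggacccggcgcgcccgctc
Per1, with an E-box and a D-box, rose and Cry1, with an E-box, fell, so that the same motif was present in genes of opposite direction. The half-site too was present in genes that rose, Per1 and Nr1d2, and in genes that fell, Nfil3, Leo1 and an entry of Arntl.

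One sDB3 heart stood apart from its 2 companions in this gene group. On replicate 3, 44 genes (0.422% of those tested) lay more than 1 log2 unit from both other sDB3 arrays while these lay within 0.5 of each other, 15 higher and 29 lower. Counted in the same way within each group, the 12 arrays ran from 11 to 66 genes, with 37 on sDB3 replicate 2. The count alone therefore does not single out replicate 3. The genes named in this paragraph that did not pass were chosen after their values were seen. Ciart, a repressor of the clock, was at 3.05, 2.80 and 2.80 in sAB and at 6.35, 6.65 and 2.85 in sDB3. Zbtb16, a zinc-finger factor induced by glucocorticoids, was at 7.17, 7.27 and 7.22 against 10.61, 10.68 and 7.14, and Noct, a rhythmic phosphatase, at 9.46, 9.40 and 9.59 against 11.38, 11.27 and 9.50. In each of the 3 genes that array lay inside or within 0.1 of the sAB range and the other 2 lay far above it. None passed with all arrays (limma adjusted p = 0.0521 for Ciart, 0.0631 for Zbtb16 and 0.0591 for Noct). Since they were picked for replicate 3, their own values without it are not given. Ciart still counts in the output list and Zbtb16 in the glucocorticoid list where that array is left out below. Ciart was below 4 on all sAB arrays, near the floor. The immediate early factor Atf3 had the same layout, at 5.09, 5.22 and 5.45 against 7.71, 7.60 and 4.56. Replicate 3 of sDB3 was set apart by its levels in such genes, so leaving it out favours their calls. The counts and values without it are a description only. Without that array 10 of 13 core clock genes passed, 6 higher and 4 lower, and 10 of 14 output genes, 8 higher and 2 lower. Dbp then differed by 2.90 (adjusted p = 0.00556), Per2 by 2.99 (1.45e-05) and Arntl by -2.91 (0.000804). Without sDB3 replicate 2 in its place, 4 core genes passed, 1 higher and 3 lower. The direction of Nr1d1, Dbp, Per1, Npas2, Cry1 and Nfil3 was the same on replicate 3 as on the other 2 arrays.

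Many of these clock genes also passed in the banded pair. In DB3 against AB, 956 genes passed (9.16%), 4.04% of genes tested higher and 5.12% lower, and among them Per1 rose by 3.39, Dbp by 2.87 and Per2 by 2.79, while Arntl and Npas2 each fell by 2.35. Nr1d2 (1.22), Usp2 (1.36), Nr1d1 (0.79) and Nfil3 (-1.29) passed as well, in the direction of the sham pair. Cry1 (-0.42), Leo1 (-0.59) and Csnk1d (0.03) did not pass there. Over the lists, 6 core genes were higher and 2 lower in the banded pair, and 8 output genes higher and 1 lower. Per1 was at 4.24, 3.88 and 3.69 in AB and at 6.62, 7.65 and 7.72 in DB3, and Arntl at 7.91, 7.66 and 7.31 against 4.59, 5.47 and 5.79, without overlap in either. For Nr1d1 the groups came close, with DB3 at 9.25 and above and the highest AB array at 9.22. The difference of the 2 effects did not pass for Dbp, Per2, Arntl and Npas2 (limma adjusted p from 0.612 to 0.872), which does not show that the effects are equal. Per1 rose more in the banded pair (difference of effects -2.01, adjusted p = 0.0421) and Nr1d1 more in the sham pair (1.38, adjusted p = 0.0329). Over all genes the difference of effects passed for 630 (6.04%), and for 372 of the 1861 that passed in the sham pair (20%). Nr1d1 differed from the rest in its base, since AB stood at 8.33, 8.54 and 9.22, well above sAB. Across all genes tested 60.3% had the same sign in both pairs, and 69% of the 1861 genes that passed in the sham pair did. Of these 1861 genes 204 (11%) also passed in the banded pair in the same direction, which is 21.3% of the 956, 61 of them higher and 143 lower. A further 34 (1.83%) passed in the opposite direction. Across the 10435 genes, which are not independent replicates, Pearson's r between the 2 differences was 0.29.

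**Figure D2:**
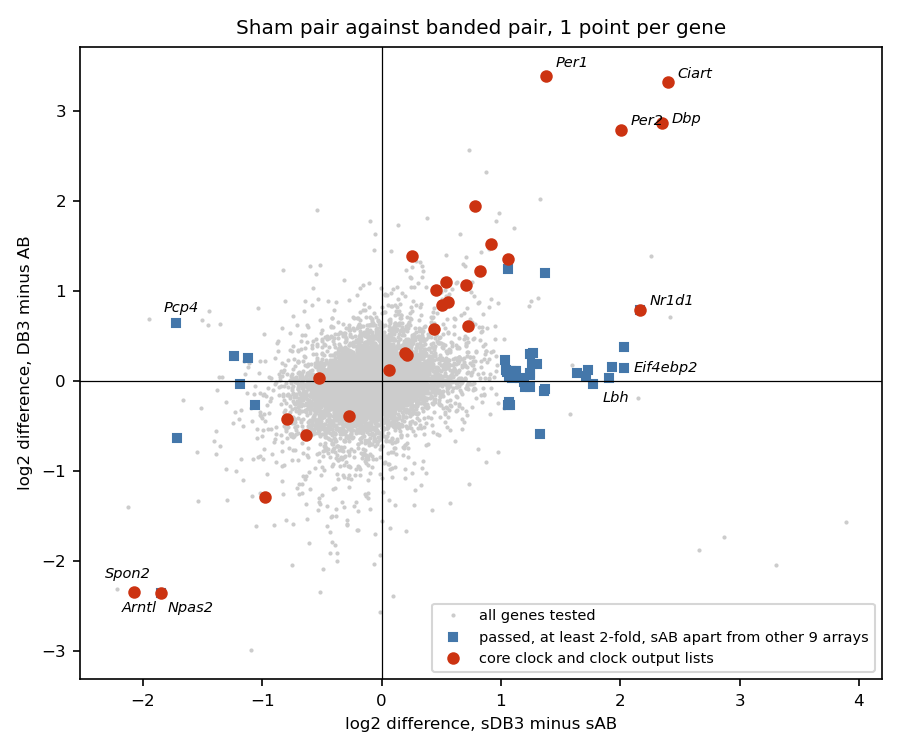
Each point is 1 gene, with its log2 difference between sDB3 and sAB on the x axis and between DB3 and AB on the y axis; red marks the core clock and clock output lists and blue squares the genes that passed at 2-fold or more and whose sAB arrays lay outside the range of the other 9 arrays. Clock genes such as Dbp, Per2, Arntl and Npas2 lie along the diagonal, and Eif4ebp2 and Lbh lie near 0 on the y axis.

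Genes that answer to glucocorticoids were raised in part. Of 20 listed genes 6 passed, all higher (30.0%, beside 5.49% of all genes higher), and the list's median was 0.36. Mt2, a metallothionein that binds zinc and scavenges radicals, was at 8.31, 8.55 and 9.07 in sAB and at 10.01, 9.51 and 9.57 in sDB3, a rise of 1.06 ± 0.23 (adjusted p = 0.0127). Mt1 rose by 0.71 (adjusted p = 0.00899) and Klf15, a regulator of amino acid and lipid use in muscle, by 0.70 (adjusted p = 0.0259). Per1, counted above, Pik3r1 (0.56) and Klf9 (0.47) were the others. Both metallothionein calls were kept with every array left out, whereas Klf15 lost it without sAB replicate 1 or 2 or sDB3 replicate 1 or 2, and Pik3r1 and Klf9 without any sham array but sDB3 replicate 3. Fkbp5, a chaperone of the glucocorticoid receptor, was at 7.75, 7.41 and 7.97 against 8.69, 9.54 and 7.40 and did not pass (adjusted p = 0.234). Without sDB3 replicate 3, 9 of the 20 passed, all higher, among them Fkbp5 at 1.40 (adjusted p = 0.0284). That array was set apart above by low levels of genes that include Zbtb16 of this list, so this count too is only a description. Without sDB3 replicate 2, 2 passed. In the banded pair 5 of the 20 passed, all higher, with a median of 0.58. Of 21 genes of the acute-phase and wound response list 3 passed (14.3%, beside 17.8% of all genes), 2 higher and 1 lower. That list had a median of -0.18, with 13 differences negative and 8 positive. Cebpb, a factor of the acute-phase and wound response, was at 9.20, 9.51 and 9.52 against 10.91, 11.51 and 9.92, a rise of 1.37 (adjusted p = 0.0231). Its call was lost without sAB replicate 1 or 2 or sDB3 replicate 1 or 2 (adjusted p up to 0.0691). Cebpb, Mt1 and Mt2 were also genes whose sAB arrays lay below all other 9 arrays.

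Among the largest rises most were of another layout, with the sAB arrays low and all 9 others alike. Eif4ebp2, an inhibitor of cap-dependent translation, was at 6.06, 6.30 and 6.50 in sAB and at 8.33, 8.32 and 8.30 in sDB3, while AB lay between 8.33 and 8.37 and DB3 between 8.43 and 8.57. It rose 4.09-fold (2.03 ± 0.10, adjusted p = 1.47e-06), and its 2 other probe sets gave 1.15 and 0.54. Bcat2, the mitochondrial transaminase of branched-chain amino acids, was at 7.12 ± 0.44 (SD, n = 3) in sAB against 9.15 ± 0.16 in sDB3 (2.03, adjusted p = 0.000161). Ap2a1, a subunit of the endocytic AP-2 adaptor, was at 6.33, 6.28 and 6.19 against 8.26, 8.07 and 8.19 (1.90, adjusted p = 8.9e-07). The same layout held for Lrp5, a Wnt co-receptor (1.93), Maz (1.73), Raver1 (1.71), Arhgap10 (1.64) and Lbh (1.77). All 8 genes kept their call in every setting run, and none passed in DB3 against AB, where their differences ran from -0.03 to 0.37. Probe sets disagreed for Lbh, whose 2 others gave 1.42 and -0.07.

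A looser layout was common, in which all sAB arrays lay on the same side of the other 9, whether or not these 9 were alike. Of the 573 genes that were higher in sDB3, 437 had all sAB arrays below all other 9 arrays, and of the 1288 lower ones 442 had all sAB arrays above them. Together these are 879 of the 1861 (47.2%), beside 13% of all genes tested. The BioC and Cre spikes and the 18S rRNA middle probe set also separated sAB from all other 9 arrays, and the 18S rRNA 5′ probe set separated it from sDB3 and AB, and their part in these differences was not tested. The other 982 genes that passed were 136 higher and 846 lower, 36 of them at 2-fold or more. Since the sAB levels that decide this also enter the comparison, these counts only describe how the calls divide. Among the clock genes Nr1d1 had sAB below the other 9 and Npas2 had it above them. Both also passed in DB3 against AB, so their other 9 arrays were not alike. Named genes with sAB below the other 9 were Ace, the angiotensin-converting enzyme (1.06), and Atp2b1, a plasma membrane calcium pump (1.07). Ppard, a nuclear receptor for fatty acids (0.91), and the growth factors Vegfb (0.78) and Tgfb1 (0.63) had the same layout. Tbx5, Mef2c and Nkx2-5, transcription factors of the heart, also had it (0.95, 0.72 and 0.57). For Ace another probe set gave 0.11, for Tbx5 0.13, and for Atp2b1 the other 2 gave -0.07 and -0.35, so that the direction rests on 1 probe set in Atp2b1.

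**Figure D3:**
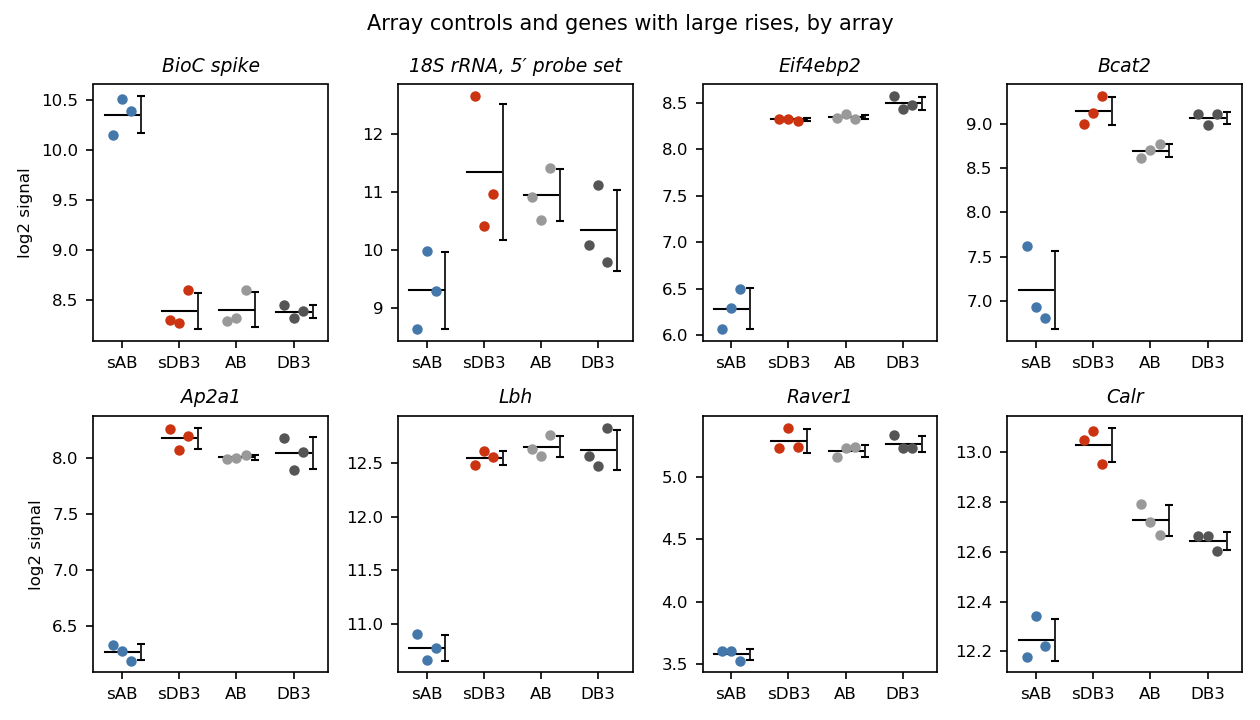
Log2 signal on each of the 12 arrays of the BioC spike, of the 5′ probe set for 18S rRNA and of 6 genes that rose, with a line at each group mean and a bar of 1 SD. BioC is high, and Eif4ebp2, Bcat2, Ap2a1, Lbh and Raver1 are low, on all sAB arrays against all others, 18S rRNA has its lowest group mean in sAB, while Calr is highest in sDB3.

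A smaller set of genes had all sDB3 arrays outside the range of the other 9 arrays. For some of them, such as Calr and Grn, the sAB arrays also lay outside it on the other side. All sDB3 arrays lay outside the other 9 for 807 genes (7.73%) and for 445 of the 1861 that passed (23.9%), 44 higher and 401 lower. Since the sDB3 levels that decide this also enter the comparison, these counts too only describe how the calls divide. Calr, a calcium-binding chaperone of the endoplasmic reticulum, was at 12.18, 12.34 and 12.22 in sAB, at 13.05, 13.08 and 12.95 in sDB3 and between 12.60 and 12.79 in AB and DB3. It rose by 0.78 ± 0.07 (adjusted p = 0.000161), with its other 2 probe sets at 0.71 and 0.68. Socs2, a feedback inhibitor induced by growth hormone, was at 10.04, 10.08 and 10.02 against 10.61, 10.89 and 10.58, and AB and DB3 lay at 9.99 to 10.24. Igfals, which holds IGF-1 in a complex in the blood, was at 4.35, 4.42 and 4.38 against 4.87, 4.90 and 5.42. Socs2 rose by 0.65 (adjusted p = 0.00284) and Igfals by 0.67 (adjusted p = 0.013), although 2 of the 3 other probe sets of Socs2 gave 0.15 and 0.14. On the receptor side the growth hormone receptor Ghr (-0.24), the IGF-1 receptor Igf1r (-0.28) and the kinase Jak2 (-0.36) fell. The IGF-2 receptor Igf2r went the other way and rose by 0.32 (adjusted p = 0.0253). In all, 7 of 24 genes of the growth hormone and IGF list passed (29.2%, beside 17.8% of all genes). Of these 3 were higher and 4 lower, with a list median of -0.08, and after median centring 4 passed higher and 1 lower. Jak2 lost its call without sAB replicate 1 or 2 or sDB3 replicate 1 or 3. Ghr kept its call only without sAB replicate 2 and Igf1r only without sAB replicate 1 among the sets with 1 sham array left out (adjusted p up to 0.0934 and 0.113).

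Some leukocyte genes were lower in sDB3, while most members of the leukocyte marker lists did not pass. The genes of this paragraph that are in no list, Ptprc, Cd52, Cd53, Laptm5 and Grn, were chosen after their values were seen. Ptprc, the CD45 phosphatase of all nucleated blood cells, was at 8.04, 8.24 and 9.06 in sAB, at 7.27, 7.51 and 7.69 in sDB3 and at 7.71 to 8.38 in AB and DB3. It fell by 0.95 ± 0.24 (adjusted p = 0.0248). Cd52 fell by 1.06, Laptm5 by 0.86, Cd53 by 0.82 and Grn, a lysosomal growth factor, by 0.75, all 4 with sDB3 below the other 9 arrays. Cd83, a surface protein of activated antigen-presenting cells, was at 6.95, 6.37 and 7.03 against 5.19, 5.54 and 6.18 and fell by 1.15 (adjusted p = 0.00996). The sDB3 arrays were again below all others for Cd83, which lay at 6.61 to 6.93 in AB and DB3. Of 33 monocyte and macrophage markers tested 32 had a negative difference, with a median of -0.49 beside -0.09 for all genes. Only 2 passed (6.06%, beside 12.3% of all genes lower). These were Cd14, the lipopolysaccharide co-receptor (-0.77), and the lysozyme gene Lyz1 (-0.63). Cd14 lost its call without sAB replicate 2 or sDB3 replicate 2, and Lyz1 without any sham array but sAB replicate 1 or sDB3 replicate 3 (adjusted p up to 0.0665 and 0.115).

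Part of the contrast in leukocyte genes came with 1 sAB heart. Replicate 3 of sAB stood more than 1 log2 unit from both companions for 66 genes (0.632%), 63 of them higher. The acute-phase gene Lcn2 was at 5.75, 5.85 and 9.76 in sAB, the neutrophil calprotectin gene S100a8 at 6.46, 6.13 and 8.71 and Serpina3n, a secreted protease inhibitor, at 5.65, 6.10 and 9.17. Lcn2 and Serpina3n were also raised on sDB3 replicate 1, at 8.52 and 8.13. Cxcl1, a chemokine for neutrophils, was at 4.42, 4.44 and 7.80 in sAB and between 4.41 and 4.73 on all other arrays. These genes, chosen after their values were seen except Serpina3n, did not pass between the groups. The summed level of the 12 neutrophil markers ran from 7.94 to 10.80 (log2) in sAB and from 7.73 to 9.09 in sDB3, that of the 35 macrophage markers from 14.54 to 15.58 and from 14.39 to 14.62. Without that array the median of the macrophage list was -0.16, with 1 member lower. The differences then were -0.65 for Ptprc (adjusted p = 0.0505), -0.70 for Cd52 (0.0911), -0.50 for Cd53 (0.0506), -0.55 for Laptm5 (0.0795) and -0.62 for Grn (0.00893). Cd83 kept its call with every array left out and Grn did too. Ptprc and Cd52 also lost it without sDB3 replicate 1 or 2, Laptm5 without these or sAB replicate 2, and Cd53 without any sham array but sAB replicate 1.

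A minority of interferon-stimulated and cell division genes passed as lower, beside 12.3% of all genes. A negative difference, passing or not, was found for 22 of 26 interferon response genes and 18 of 19 genes of DNA replication and mitosis. With a median of -0.09 over all genes, a negative sign was also the more frequent one among all genes tested. Of 26 interferon response genes 6 passed, all lower (23.1%, median -0.28), led by Bst2, which tethers budding virus to the cell (-0.63), and Trim30a (-0.54). Bst2 lost its call without sAB replicate 2 or 3 or sDB3 replicate 1 or 2 (adjusted p up to 0.0849), and Trim30a without sDB3 replicate 2 (0.0544). In the banded pair the median of the list was -0.06. After quantile normalization 3 passed, after median centring 2, without sAB replicate 3 2 and without sDB3 replicate 2 1. Of 19 genes of DNA replication and mitosis 6 passed, all lower (31.6%, median -0.41). Mki67, the marker of dividing cells, was at 5.36, 6.29 and 5.67 in sAB and at 3.57, 3.55 and 3.84 in sDB3, and Mcm5, a subunit of the replicative helicase, at 6.97, 7.35 and 7.33 against 6.04, 6.12 and 6.00. Neither overlapped between the groups, and Mki67 was below 4 on all sDB3 arrays, near the floor, with differences of -2.12 ± 0.55 (adjusted p = 0.0259) and -1.16 ± 0.31 (adjusted p = 0.0281). The others were Mcm4 (-0.44), Mcm6 (-0.41), the polymerase clamp gene Pcna (-0.35) and Stmn1, a regulator of microtubules (-0.65). Mcm4, Mcm6 and Pcna had sDB3 below all other 9 arrays. Mki67 lost its call without sAB replicate 2 or 3 or sDB3 replicate 1 or 2 (adjusted p up to 0.0822). Without sAB replicate 2 or 3 or sDB3 replicate 2 or 3, Mcm5, Mcm6, Pcna and Stmn1 did not pass, and Mcm5, Pcna and Stmn1 did not without sDB3 replicate 1 (adjusted p up to 0.107 for Pcna). Mcm4 kept its call in every left-out set, and 1 gene of the list passed without sAB replicate 3, 1 without sDB3 replicate 2 and 2 without sDB3 replicate 3. In a fit on the 6 sham arrays alone 7 passed, all lower. Of the 41 listed genes on the array 22 were too dim to test.

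**Figure D4:**
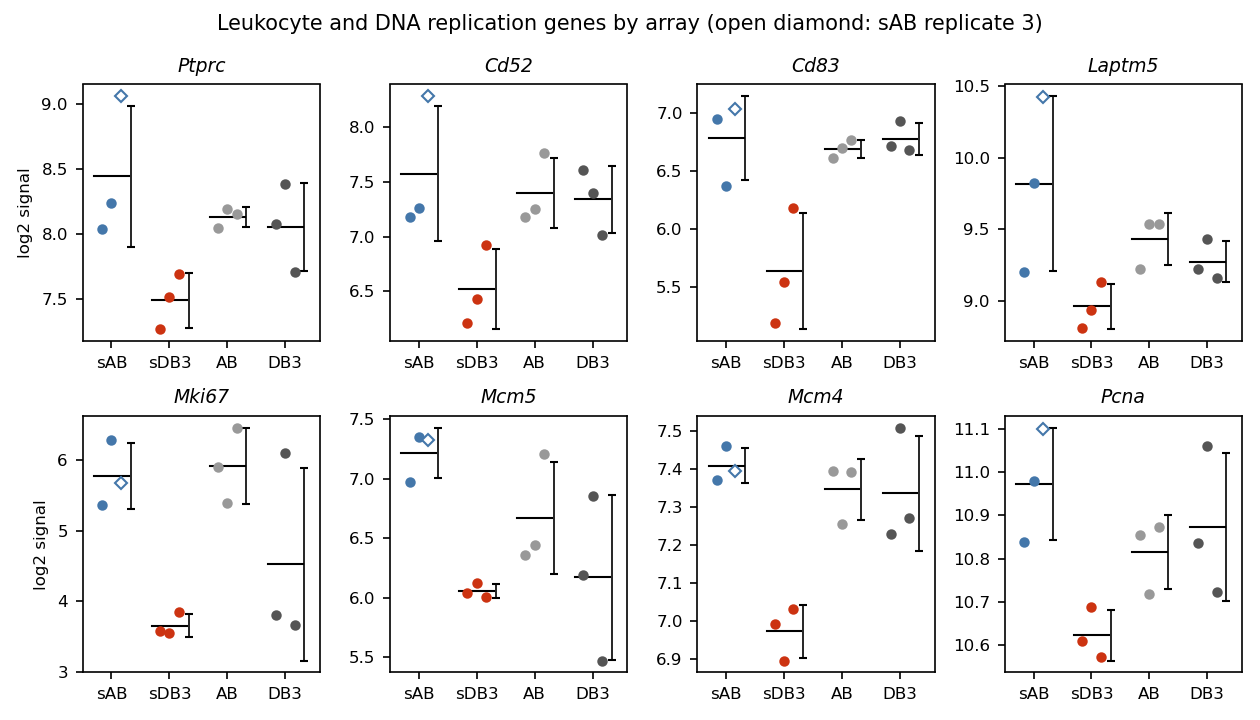
Log2 signal on each of the 12 arrays of 4 leukocyte genes and 4 genes of DNA replication and cell division, with a line at each group mean and a bar of 1 SD. The sDB3 arrays are lowest for Ptprc, Cd52, Cd83, Laptm5, Mcm4 and Pcna, and sAB replicate 3 (open diamond) is the highest array for Ptprc, Cd52, Cd83 and Laptm5.

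The largest falls joined clock genes with genes of varied function. Spon2, a secreted matrix protein that binds microbes, was at 4.50, 4.86 and 5.93 in sAB and at 2.88, 2.70 and 3.06 in sDB3, where it lay near the floor. It fell by 2.22 ± 0.32 (adjusted p = 0.00255, kept in every setting run), and the banded pair gave -2.30. The Iroquois transcription factor genes Irx1 and Irx2 fell, Irx2 from 6.11, 5.80 and 4.98 to 2.78, 4.40 and 3.88 (-1.95, adjusted p = 0.0436) and Irx1 from 6.64, 6.49 and 5.71 to 4.32, 5.14 and 5.01 (-1.46, adjusted p = 0.0176). Irx2 lost its call without any 1 sham array, and Irx1 without sAB replicate 1 or 2 or sDB3 replicate 1. The banded pair gave 0.68 for Irx2 and 0.62 for Irx1. Pcp4, a calmodulin-binding peptide of Purkinje and conduction cells, was at 4.19, 4.92 and 4.05 against 2.23, 2.96 and 2.79 (-1.73, adjusted p = 0.00537), and the receptor tyrosine kinase gene Ret at 7.68 ± 0.78 (SD, n = 3) against 5.96 ± 0.36 (-1.72, adjusted p = 0.00769). For Pcp4 and Ret the sAB arrays lay above all other 9 arrays. Akap5, an anchor for protein kinase A, fell by 1.53, Tmtc2 by 1.51, Bcl11b by 1.50 and Nav3 by 1.39. On sDB3 replicate 3, Akap5, Tmtc2 and Nav3 lay nearer to sAB than on the other 2 arrays (5.27 against 4.21 and 3.85 for Akap5). Akap5 and Bcl11b lost their calls without sAB replicate 1 or 2 or sDB3 replicate 1 or 2, Nav3 without sDB3 replicate 1, and the second probe set of Bcl11b gave -0.56 and did not pass.

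Vascular genes split. Of 24 endothelial markers 7 passed (29.2%, beside 17.8% of all genes), 2 higher and 5 lower, with a median of -0.09, equal to that of all genes. Cldn5, which seals endothelial tight junctions, was at 8.43, 8.57 and 8.45 in sAB and at 7.13, 7.09 and 8.16 in sDB3, a fall of 1.02 (adjusted p = 0.029). Ecscr, an endothelial surface protein, was at 8.53, 8.51 and 8.78 against 7.75, 7.65 and 7.99, a fall of 0.81 (adjusted p = 0.00289). Emcn fell by 0.52, Icam2 by 0.51 and the transcription factor gene Erg by 0.46, the last 2 with sDB3 below all other arrays. Rasip1 (0.58) and the TGF-beta co-receptor gene Eng (0.39) rose, both with sAB below all other arrays. Cldn5 lost its call without any sham array but sDB3 replicate 3, and Emcn without sAB replicate 2 or 3 or sDB3 replicate 1 or 2, and Eng without sAB replicate 1 or sDB3 replicate 1 or 2 (adjusted p up to 0.0667), while Ecscr, Icam2, Erg and Rasip1 kept theirs. A second probe set of Eng gave -0.07. In the banded pair Cldn5 fell by 1.24 and Ecscr by 0.46. Among angiogenic ligands Vegfc, the lymphatic growth factor, fell by 0.89, a call lost without sAB replicate 2 or sDB3 replicate 1 or 2 (adjusted p up to 0.071), and Vegfb rose by 0.78. The summed level of the 24 markers was 15.34 to 15.43 in sAB and 15.33 to 15.40 in sDB3.

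Genes tied to pressure overload gave small or mixed differences here. Of 20 hypertrophy-associated genes 5 passed (25.0%, beside 17.8% of all genes), 3 higher and 2 lower, with a median of 0.01. In DB3 against AB 16 of the 20 passed lower, with a median of -0.71. Nppa, the atrial natriuretic peptide gene, was at 12.64, 12.77 and 12.71 in sAB and at 12.93, 13.11 and 13.06 in sDB3 (0.33 ± 0.16, adjusted p = 0.166), against 14.90 to 15.21 in AB. Nppb was at 13.30, 13.23 and 13.21 against 12.49, 12.75 and 12.66, a difference of -0.61 (adjusted p = 0.0489) whose call was lost without any single sham array (adjusted p up to 0.129). Rcan1, a feedback inhibitor of calcineurin, fell by 0.75 (adjusted p = 0.0381), a call lost without any sham array but sDB3 replicate 3. Xirp1 (0.48) and Des, which encodes desmin (0.47), rose, as did Flnc (0.37). Flnc lost its call without sAB replicate 1 or 3 or sDB3 replicate 1 or 2 (adjusted p up to 0.13). Myh7 (0.25), Acta1 (-0.39), Col1a1 (0.58), Col3a1 (-0.26), Postn (-0.38) and Timp1 (-0.44) did not pass. Of 39 matrix glycoproteins and proteoglycans 2 passed (5.13%, below the 17.8% of all genes), both higher with sAB below all other arrays. These were Ltbp4, which stores latent TGF-beta (0.71), and Hspg2, which encodes perlecan (0.65). Of 15 non-fibrillar collagens 1 passed (6.67%), Col15a1 (0.73). Adam19, a membrane protease, fell by 1.29 and did so by 1.32 in the banded pair, with a call in the sham pair that was lost without any sham array but sDB3 replicate 3.

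Channel and energy genes changed in a few members each, at shares near that of all genes (17.8%) for potassium channels (17.6%), above it for glycolysis (26.3%) and below it for fatty acid oxidation (7.41%). Of 17 potassium channel genes 3 passed, all higher: Kcnj11, the pore of the ATP-sensitive channel, from 8.93, 8.61 and 8.54 to 9.51, 9.56 and 9.60 (0.86, adjusted p = 0.00179), Kcnip2, a subunit of the transient outward current (0.56), and Kcnk3 (0.45). These calls were kept with every array left out, and in the banded pair Kcnip2 rose by 0.54. Tcap, the titin cap of the Z-disc was at 13.17, 12.74 and 13.20 against 13.90, 14.14 and 13.53 (0.82, adjusted p = 0.0144), and it rose by 0.88 in the banded pair. The call of Tcap was lost without sDB3 replicate 2 (adjusted p = 0.0532). Among 19 genes of glycolysis and glucose uptake 4 were higher, with Pfkl (0.78) and the insulin-responsive transporter gene Slc2a4 (0.33), and 1 lower, the muscle fructose bisphosphatase gene Fbp2 (-0.65). Slc2a4 lost its call without sAB replicate 2 or 3 or sDB3 replicate 1 or 2 (adjusted p up to 0.0719), and Fbp2 without any sham array but sDB3 replicate 2 (0.122). Fatty acid oxidation gave 1 higher, the transporter gene Slc27a1 (0.71), and 1 lower of 27, with a median of -0.01. In the banded pair 7 fatty acid oxidation genes passed, all higher, and 3 glycolysis genes were higher and 3 lower. Acot2, a mitochondrial thioesterase induced by fasting, rose by 0.60 with sDB3 above all other arrays.

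Lists of housekeeping complexes showed small differences, and the counts moved with the scaling. The shares called were 14.9% for the mitochondrial ribosome, 24.2% for the proteasome, 4.88% for complexes II to V, 30.8% for endoplasmic reticulum chaperones and 16.7% for cholesterol synthesis, beside 17.8% of all genes. Of 74 mitochondrial ribosomal genes 1 was higher and 10 lower, with a median of -0.11, but 6 were higher and 3 lower after median centring. Of 33 proteasome genes 1 was higher and 7 lower (median -0.10), and 2 higher and 1 lower after median centring. Of 41 subunits of respiratory complexes II to V 2 passed, both higher, with a median of 0.05, and 14 passed, all higher, after median centring. In the banded pair 3 mitochondrial ribosomal and 3 proteasome genes were lower, 2 genes of complexes II to V higher, 2 chaperone genes higher and 1 cholesterol gene higher. The endoplasmic reticulum chaperones were less affected by scaling: of 26 genes 1 was higher, Calr, and 7 lower, and after median centring 3 were higher and 7 lower. Those lower included Ero1b, an oxidase that drives disulfide formation (-0.61), Creld2 (-0.60), Manf, a secreted stress factor (-0.56), and Xbp1, a transcription factor of the unfolded protein response (-0.42). In these 4 genes the sAB arrays lay above all other 9 arrays. Manf lost its call without sAB replicate 3 or sDB3 replicate 1 or 2 (adjusted p up to 0.0578). For cholesterol synthesis 3 of 18 were lower, and after median centring 3 were higher.

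**Figure D5:**
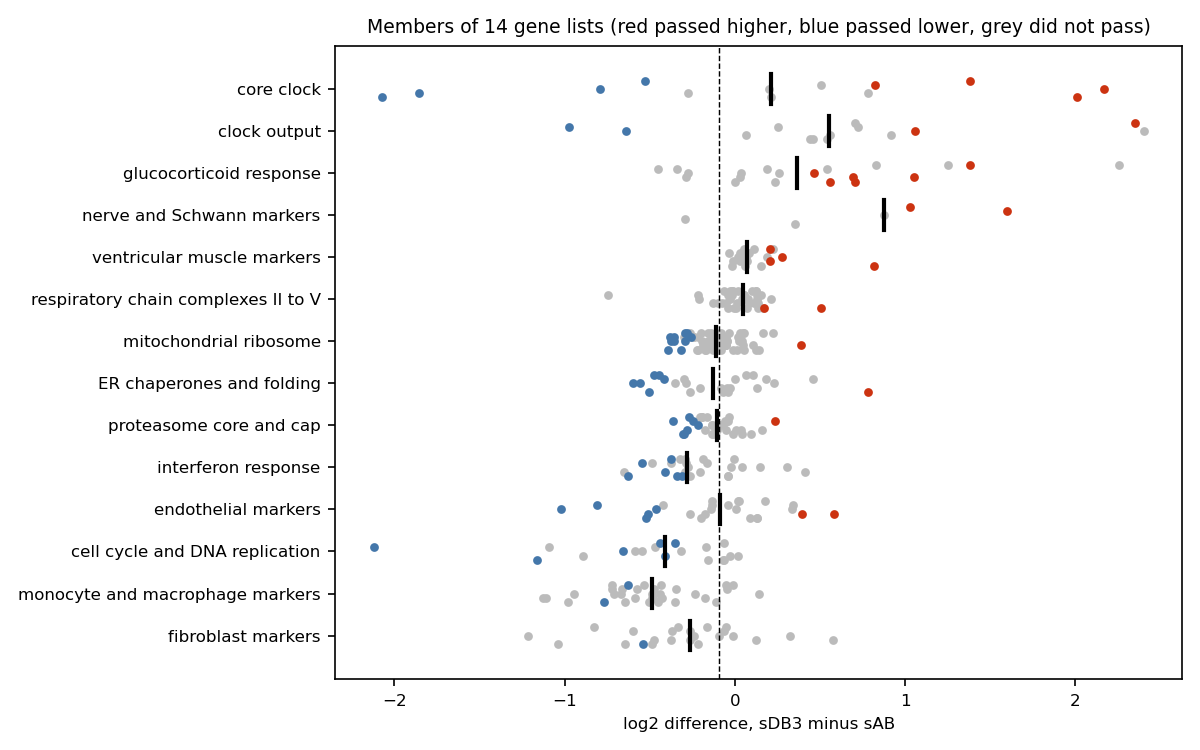
Log2 difference between sDB3 and sAB on the x axis for each tested member of 14 gene lists, 1 row per list, with red for members that passed higher, blue for those that passed lower and grey for the rest; a thick line marks the list's median and the dashed line the median of all genes, -0.09. Core clock genes spread to both sides, glucocorticoid-responsive genes lie to the right, and macrophage and cell cycle genes to the left.

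Markers of tissues beside the ventricle passed at 16.7% each for the atrial, blood and skeletal muscle lists, beside 17.8% of all genes. The share was 40.0% for nerve and Schwann cell markers, of which only 5 were tested. None of 7 adipocyte, 6 epicardial and mesothelial or 2 thymus and lung markers passed. Myl7, an atrial myosin light chain gene, was at 9.28, 6.96 and 9.32 in sAB and at 12.41, 12.97 and 10.11 in sDB3, and sarcolipin, Sln, at 5.44, 3.50 and 6.57 against 9.73, 10.56 and 6.89. Neither passed (limma adjusted p = 0.187 and 0.128), and both varied as widely among AB and DB3 arrays, from 4.67 to 12.72 for Myl7. Both genes were chosen after their values were seen. The summed level of 13 atrial markers was 13.48 to 13.63 in sAB and 13.90 to 14.84 in sDB3, and of 12 tested 2 passed, Tbx5 and Nr2f2 (0.74), both higher. The part of atrial tissue in other differences was not tested. Of 5 nerve and Schwann cell markers 2 passed, both higher. Sox10, a transcription factor of Schwann cells, was at 4.28, 4.31 and 3.97 against 5.06, 5.63 and 4.94 (1.03, adjusted p = 0.0107) and kept its call with every array left out. Mbp, the myelin basic protein gene, was at 3.09, 2.82 and 4.14 against 5.48, 5.03 and 4.34 (1.60, adjusted p = 0.0437), a call lost without sAB replicate 1 or 2 or sDB3 replicate 1 or 2. The summed level of the 13 nerve markers was 7.30 to 7.52 in sAB and 7.74 to 8.01 in sDB3, and 7 of them stayed below 4 on all 6 sham arrays. In the banded pair Sox10 (0.47) and Mbp (0.18) did not pass, with Sox10 at 4.00 to 4.31 in AB and 4.28 to 5.03 in DB3. Among 6 blood markers 1 passed, Hbb-b2, a haemoglobin chain gene (0.40), a call lost without sAB replicate 1 or 3 or sDB3 replicate 1 or 2 (adjusted p up to 0.11). Its difference in the banded pair was 0.07.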

How the data were processed

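The authors deposited log2 signals per probe set for 12 arrays, made with GCRMA per the submitters' processing notes. GCRMA corrects background by probe sequence and quantile-normalizes arrays, which can spread a change of many genes over the rest. The sources used here do not give its version or settings or a genome build. Nothing was normalized further in the main analysis. Of 45101 probe sets, 34945 carry 1 gene symbol in the platform annotation and were used, updated by gene ID through RefSeq. The 932 with several symbols, the 9160 with none and the 64 controls were left out of tests. Probe sets above 4 (log2) on at least 3 arrays entered the test, each gene through the one of highest mean signal. This gave 10435 genes, 4608 of them with more than 1 such probe set. Levels near the floor, which 29.0% to 31.6% of probe sets share on each array, compress folds.

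Group means were compared in R 4.3.3 by lmFit and eBayes of limma 3.58.1, in 1 model of the 4 groups, after the analysis of variance in the series' design text, with 8 residual and 2.68 prior degrees of freedom. All p-values are of two-sided tests, and Benjamini-Hochberg adjustment ran over every gene tested. The contrasts were sDB3 minus sAB, DB3 minus AB and the difference of these effects. Tested on simulated data of this size, the fit recovered 53.8% of changes of 0.5 and 93% of changes of 1 (log2), with 4.92% of calls false. In the simulated data 200 genes were changed in sDB3, noise was normal and independent between genes, and no group was shifted or handled apart. The share of false calls therefore does not carry over to the calls made on the real arrays. Replicates are numbered in accession order. The number of arrays limits precision.

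Genes named are the 12 largest rises and the 12 largest falls among genes that passed without overlap of the groups, up to 4 passing members of each of 56 lists, and a fixed set of overload, clock and stress genes. The comparison, the lists and these rules were chosen with earlier results of these data known. Named outside the rule, after their values were seen, were Nr1d2, Cry1, Csnk1d, Ciart, Zbtb16, Noct, Atf3, Klf9, Pik3r1, Mef2c, Nkx2-5, Ghr, Igf1r, Igf2r, Icam2, Erg, Ptprc, Cd52, Cd53, Laptm5, Grn, Lcn2, S100a8, Cxcl1, Mcm6, Pcna, Flnc, Xbp1, Myl7 and Sln. Alternatives were other filters, probe set rules, scalings, moderations and weights, a fit on only the groups compared, and leaving out each array. The count without genes whose sAB arrays stand apart was added after seeing the data and uses the levels compared, so it is a description. Sequences are RefSeq promoters of GRCm38.p6.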

Additional observations from a re-analysis of the deposited data

Results flagged for a closer look

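For 46 of the 156 named genes the difference between sDB3 and sAB was itself different from that between DB3 and AB by limma (adjusted p under 0.05), beside 372 of the 1861 genes that passed in the sham pair (20%). Of the 156, 145 passed in the sham pair, and most were named because they did, which by itself favours a difference of effects. The values are the log2 difference in the sham pair minus that in the banded pair. Among the largest rises it was Eif4ebp2 (1.88), Ap2a1 (1.87), Lbh (1.81), Lrp5 (1.77), Bcat2 (1.66), Raver1 (1.66), Maz (1.60) and Arhgap10 (1.55). It was Ace (1.32), Atp2b1 (1.03), Ppard (0.82), Tgfb1 (0.81), Vegfb (0.55), Ltbp4 (0.79) and Hspg2 (0.92) for the enzyme, pump, receptor, growth factor and matrix genes with the sAB arrays below the rest, and Cpox (0.90), Pfkl (0.86), Hk1 (0.65), Gpat4 (0.64), Atf5 (0.60), Hspb7 (0.59), Jph2 (0.46), Des (0.47) and Actn2 (0.33) for metabolic, stress and sarcomere genes. In the genes that were highest in sDB3 it was Calr (0.86) and Socs2 (0.61). Col15a1 (1.87), Xirp1 (1.07), Nppa (1.48) and Atp1b1 (0.53) differed with a positive value in the sham pair and a negative one in the banded pair, although Nppa did not pass in the former. Nppb (1.19), Rcan1 (1.29) and Hspb3 (0.53) were lower in both pairs, more so in the banded one. Genes lower in the sham pair and with a positive value in the banded pair were Pcp4 (-2.37), Bcl11b (-2.18), Irx1 (-2.07), Fbp2 (-1.43) and Ero1b (-0.70), together with Map1lc3b (-0.59), Mmut (-0.58), Ndrg1 (-0.56), Plin5 (-0.56), Cacna2d1 (-0.52) and Fgf1 (-0.46). Of the clock genes, Per1 (-2.01) and Nr1d1 (1.38) differed, with a larger rise in the banded and in the sham pair respectively.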

How the results depend on the processing

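No paired analysis was possible because each array is of a different mouse and the labels pair no mice. The count for sDB3 against sAB was 1861. It was 2987 with every probe set tested, 571 with only the groups compared and 982 without genes whose sAB arrays stand apart from the other 9, a description added after seeing the data that uses the levels compared. It ran from 967 to 1945 with 1 array left out. The other alternatives gave 1263 to 2079, with 1054 to 1780 genes called in both. For DB3 against AB the count was 956, it was 629 with only the groups compared and it ran from 365 to 1031 with 1 array left out. For the difference of effects it was 630, with 338 without the filter on dim probe sets, 976 with every probe set tested and 152 to 567 with 1 array left out. Smaller fits have fewer degrees of freedom, and no other cause was tested.

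Of 156 genes named by rule, 145 passed and 45 of these were called in every setting run. The fit on only the groups compared ended 86 calls, median centring 36 and quantile normalization 25. Averaging a gene's probe sets reversed 5 genes: Il6st (0.0471), Erap1 (0.35), Camk2d (-0.0048), Ndrg1 (0.30) and Myh6 (0.31). Their probe sets disagree. Signals near background limit what can be read for Per2, Ciart, Spon2, Pcp4, Mki67 and Raver1, each below 4 on all arrays of at least 1 sham group.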
